A study of Mus musculus with 2 samples.

Results

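The cytosolic ribosomal proteins are the protein parts of the ribosome that translates nuclear-encoded mRNA. They were taken by gene symbol, as the Rpl and Rps genes with their numbered paralogues plus Rplp0, Rplp1, Rplp2 and Rpsa, leaving out names of pseudogenes. Of such genes in the reference annotation 87 are described here, and 83 of them had a read, out of 16945 annotated genes with a read in either library. Replicate 1 held reads of 83 members and replicate 2 of 82. The rule reads symbols and no level.

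The RNA came from adrenal glands of female B6CASTF1/J mice aged 36 days, which are hybrids of a C57BL/6J and a CAST/EiJ parent with no other allele or treatment named. Both libraries belong to a single group, numbered by the labels as replicates 1 and 2, so the data hold no contrast of conditions. Replicate 1 was made from 1 µg of RNA, and no amount is given for replicate 2. The labels disagree on whether both came from a single animal, so any spread or p-value measures these 2 libraries and may be technical.

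A long read covers a transcript or a stretch of it once, so levels are reads per 1000000 reads of annotated genes (CPM), not divided by length. Effects of transcript length or amplification on the number of reads were not tested. Replicate 1 held 1144572 such reads and replicate 2 held 414588. The defining markers of adrenal cortex were read in both libraries, with summed levels of 63922 and 82233 CPM over 6 genes, and so were all 5 medulla markers, with 9944 and 6739 CPM. Markers of skeletal muscle reached 927 CPM in replicate 1 and 7.24 CPM in replicate 2, with 1 of 7 at 0 reads in replicate 1 and 4 of 7 in replicate 2. The 6 adipocyte markers summed to 6521 and 8874 CPM, and the 4 erythroid markers to 3437 and 3300 CPM. The 5 testis markers were at 0 in both. In bulk tissue, fewer cells of a type and less RNA per cell cannot be told apart.

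A ribosome consists of a small subunit, which reads the mRNA, and a large subunit, which joins amino acids and releases the chain through its exit tunnel. Each subunit protein is needed in the same number of copies in most ribosomes, except for the stalk, where several copies of Rplp1 and Rplp2 sit on Rplp0 and recruit elongation factors. The mRNAs of these proteins usually begin with a tract of pyrimidines through which their translation is switched together by mTOR and the RNA-binding protein Larp1. Mammalian genomes hold many processed copies of these genes, made by reverse transcription of the mRNA and therefore without introns.

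Ribosomal protein genes took 41494 reads in replicate 1 and 16942 in replicate 2. This was 3.63% of annotated reads (95% Wilson interval 3.59 to 3.66) in replicate 1 and 4.09% (4.03 to 4.15) in replicate 2, or 3.86% ± 0.326 (SD, n = 2). The intervals cover counting error only, and those of the libraries did not overlap. Of the 83 members, 68 were among the 1000 highest genes of the tissue by mean level. The median member stood at 398 CPM in replicate 1 and 444 CPM in replicate 2. Members are scattered over 19 chromosomes, with 15 of them on chromosome 7.

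Levels within the family were unequal. Over the 76 members that are no paralogue of another, the coefficient of variation of CPM was 61.3% in replicate 1 and 70.3% in replicate 2. Their quartiles were 294 and 590.0 CPM in replicate 1 and 278 and 667 CPM in replicate 2, a quartile ratio of 2.01 and 2.40. The highest was 113-fold and 96.7-fold above the lowest, and 47 of the 76 lay within 2-fold of the median in both libraries. The order of levels was alike in both libraries, with Spearman's rho of 0.91 over the 82 members read in both. The rank correlation of level with the length of the most read annotated transcript, which ran from 345 to 5179 bases, was weak. Spearman's rho was -0.015 in replicate 1 and -0.098 in replicate 2 over 76 genes that share the same libraries. With reads on processed copies added, as counted below, it was -0.066 and -0.126. For the exon number of that transcript, rho was 0.0098 and -0.154 without copies, and -0.067 and -0.260 with them. No test was made of these values.

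**Figure D1:**
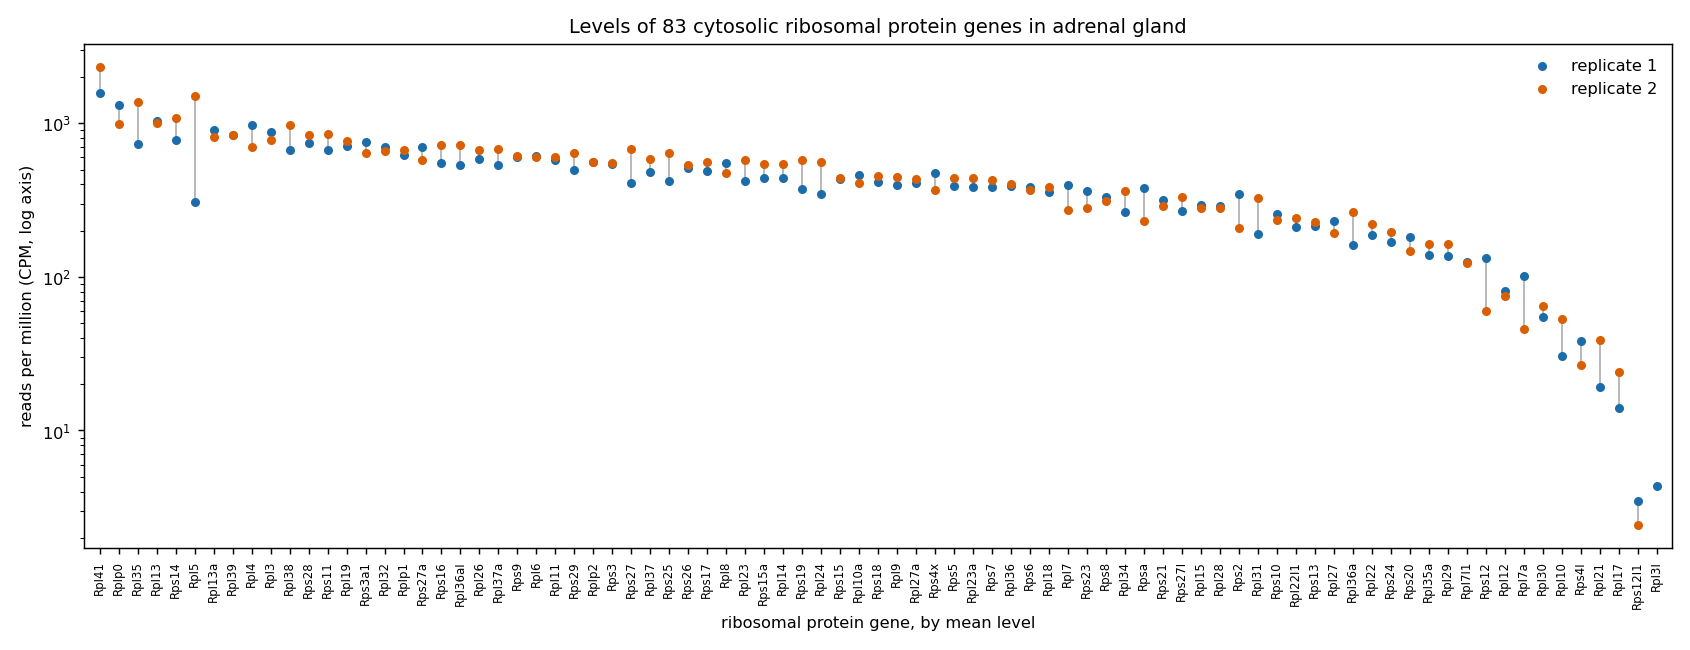
Level of each of the 83 ribosomal protein genes in CPM on a log axis, ordered by the mean, with 1 point for each of the 2 replicates and a grey line joining them. Most genes lie between 100 and 1000 CPM in both replicates, Rpl5 shows the widest gap among abundant members, and Rpl3l has no point for replicate 2 because it had 0 reads there.

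The subunits were balanced in their medians. The 3 stalk genes, which belong to the large subunit, were counted apart from it here and summed to 2494 and 2229 CPM. The 46 large-subunit members read had a median of 394 CPM in replicate 1 and 438 CPM in replicate 2. The 34 small-subunit members had medians of 398 and 441 CPM. The ratio of large to small medians was 0.990 and 0.992. The sums differed more, at 19768 and 23505 CPM for the large subunit against 13991 and 15131 CPM for the small subunit, and the large subunit has more genes.

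Among the stalk proteins, Rplp0, the base on which the stalk is built, stood at 1311 CPM in replicate 1 and 994 CPM in replicate 2. Rplp1 stood at 621 and 671 CPM, and Rplp2 at 562 and 564 CPM. Rplp0 was above both of its partners in each library, whereas the protein stalk holds more copies of Rplp1 and Rplp2 than of Rplp0.

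The 10 members with the highest means held 25.8% of member reads in replicate 1 and 28.0% in replicate 2. Rpl41, the smallest ribosomal protein, led with 1582 CPM in replicate 1 and 2332 CPM in replicate 2. Rpl35, which lies near the exit of the tunnel, had 739 and 1375 CPM. Rpl5, which carries the smallest RNA of the large subunit into the ribosome together with Rpl11, had 308 and 1505 CPM. All 3 were higher in replicate 2. Several of the others were steadier between libraries. Rpl13 had 1031 and 1008 CPM, Rpl13a had 910 and 820 CPM, Rpl3 had 883 and 774 CPM, and Rpl39, a very short protein of the tunnel wall, had 838 and 844 CPM. Rps14, the highest small-subunit gene, had 781 and 1090 CPM, and Rpl4 had 975 and 704 CPM.

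At the low end stood genes whose proteins are as integral to the ribosome as the others. Rpl17 had 14.0 and 24.1 CPM, Rpl21 had 19.2 and 38.6 CPM, and Rpl10, which lies by the site where peptide bonds form, had 30.6 and 53.1 CPM. Rpl30 had 55.0 and 65.1 CPM and Rpl12 had 81.3 and 74.8 CPM. Rpl7a had 101 and 45.8 CPM, and Rps12 had 132 and 60.3 CPM. Each of these 7 was under the lower quartile of the family in both libraries. Each has copies in the genome that took reads of their own, but so had most of the family, 73 of the 83 members.

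Reads on these copies were counted after the low values were seen. Genes with 1 exon or annotated as pseudogenes were compared by sequence with the coding sequence of each member's most read coding transcript. At 90% identity or more over at least 50% of that sequence, 227 genes matched 73 members and held 11614 reads in replicate 1 and 4708 in replicate 2, which is 10147 and 11356 CPM. How the upstream processing placed a read that fits a gene and its copy equally well is not stated in the labels or headers, so the level of each such pair is uncertain.

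In 14 members the copies held more reads than the gene itself in both libraries. Rpl21 had 22 and 16 reads against 593 and 273 on 13 copies. Rpl10 had 35 and 22 reads against 615 and 141 on 3 copies, of which Rpl10-ps3 alone held 612 and 138 and matched the Rpl10 coding sequence at 100% identity. Rpl17 had 16 and 10 reads against 211 and 103 on 5 copies. In these 3 low members the copies held more reads than the gene. Rpl35a had 158 and 68 reads against 854 and 332 on 13 copies, with 527 and 208 on Gm10243. Rps29 had 567 and 267 reads against 980 and 273, nearly all on Gm14303 with 979 and 273. Rpl37 had 551 and 244 reads against 555 and 297 on its single copy Rpl37rt. For Rpl37 the gene and its copy were read about equally.

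With copies added, the lower end of the family closed up. Rpl10 came to 568 and 393 CPM, Rpl21 to 537 and 697 CPM and Rpl17 to 198 and 273 CPM. Rpl35a came to 884 and 965 CPM. Over the 76 members the quartile ratio fell from 2.01 to 1.82 in replicate 1 and from 2.40 to 1.80 in replicate 2, and 55 rather than 47 members lay within 2-fold of the median in both libraries. Rpl7a remained low at 205 and 118 CPM, as did Rps12 at 220 and 96.5 CPM and Rpl12 at 170 and 145 CPM.

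**Figure D2:**
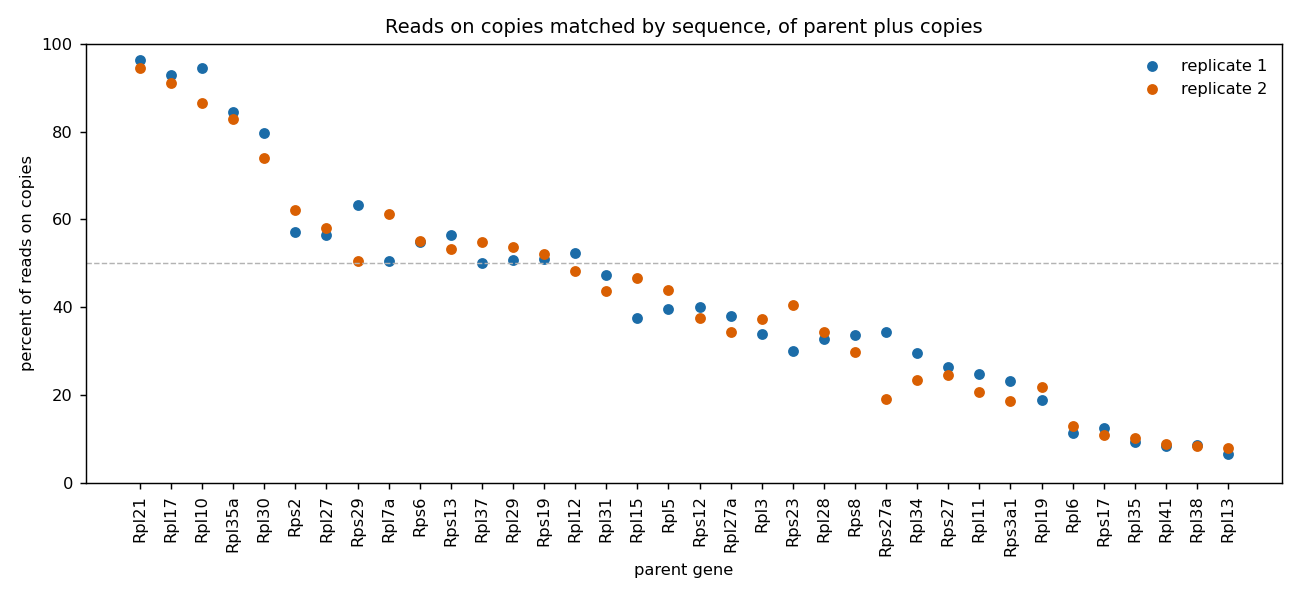
Percent of reads found on copies matched by sequence, out of the reads of the parent gene plus its copies, for the 36 parents with at least 100 copy reads, with 1 point for each of the 2 replicates and a dashed line at 50%. Rpl21, Rpl17 and Rpl10 lie above 86% in both replicates, and Rpl13 and Rpl38 lie under 10%.

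Paralogues are second genes for a ribosomal protein, some of them used mainly in muscle or in testis. The rule took 11 of them, and 7 had a read. Together they reached 1190 CPM in replicate 1 and 1452 CPM in replicate 2. In 2 pairs the paralogue matched or exceeded its partner. Rpl36al had 615 and 301 reads against 185 and 109 for Rpl36a, which is 76.9% of the pair in replicate 1 and 73.4% in replicate 2, with 87.7% identity between their coding sequences. Rpl22l1 had 243 and 100 reads against 215 and 92 for Rpl22, or 53.1% (48.5 to 57.6) and 52.1% (45.0 to 59.0) of the pair, so that neither gene of this pair was above the other beyond counting error. Their coding sequences share 68.2% of bases.

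The other paralogues stayed under their partners. Rps27l, known in human cells as a target of p53, had 308 and 138 reads, 39.8% and 32.7% of the pair with Rps27. Rpl7l1, whose yeast counterpart takes part in ribosome assembly, had 143 and 51 reads, 27.5% ± 5.02 (SD, n = 2) of the pair with Rpl7. Rps4l, a 1-exon gene annotated as a pseudogene, had 44 and 11 reads, 7.52% and 6.75% of the pair with Rps4x. Rps12l1, whose 1-exon transcript is annotated as a processed pseudogene, had 4 reads and 1 read. Rpl3l, the form of striated muscle, had 5 reads in replicate 1 and 0 in replicate 2, where 0 reads allow up to 7.24 CPM. The skeletal muscle markers were likewise higher in replicate 1, and their part in the Rpl3l reads was not tested.

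No read was found for Rpl10l and Rpl39l, which are known from testis, or for the pseudogenes Rpl6l and Rpl32l. At 0 reads each could reach 2.62 CPM in replicate 1 and 7.24 CPM in replicate 2. Their partners were read, Rpl39 at 838 and 844 CPM and Rpl10 at 30.6 and 53.1 CPM.

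Transcript models were sorted upstream into classes by their splice junctions. Known models match an annotated transcript, incomplete splice matches (ISM) hold a consecutive part of its junctions, NIC models join annotated sites in a new combination, NNC models use an unannotated site, and Genomic models overlap introns or other genomic sequence. Known models took 89.7% of member reads in replicate 1 and 89.9% in replicate 2, against 75.04% and 69.2% for all other annotated genes. NIC and NNC models were rarer than elsewhere. NIC took 0.405% and 0.437% of member reads against 3.57% and 3.32%, and NNC took 0.942% and 0.927% against 3.01% and 2.82%. Genomic models took 1.39% and 0.921% against 6.501% and 8.43%. Reads with 1 exon made up 4.57% and 3.91% of member reads and 13.9% and 19.9% of other reads. These shares are given without a test, and transcript lengths were not matched between the sets.

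ISM models took 7.54% and 7.84% of member reads against 11.9% and 16.3% of other reads. The ISM shares of the libraries differed by 0.301 percentage points in the members. Of the 83 members, 64 had over 80% of their reads in Known models in both libraries, 5 had over 20% in ISM models in both, and 1 of these, Rpl39, had over 50%.

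**Figure D3:**
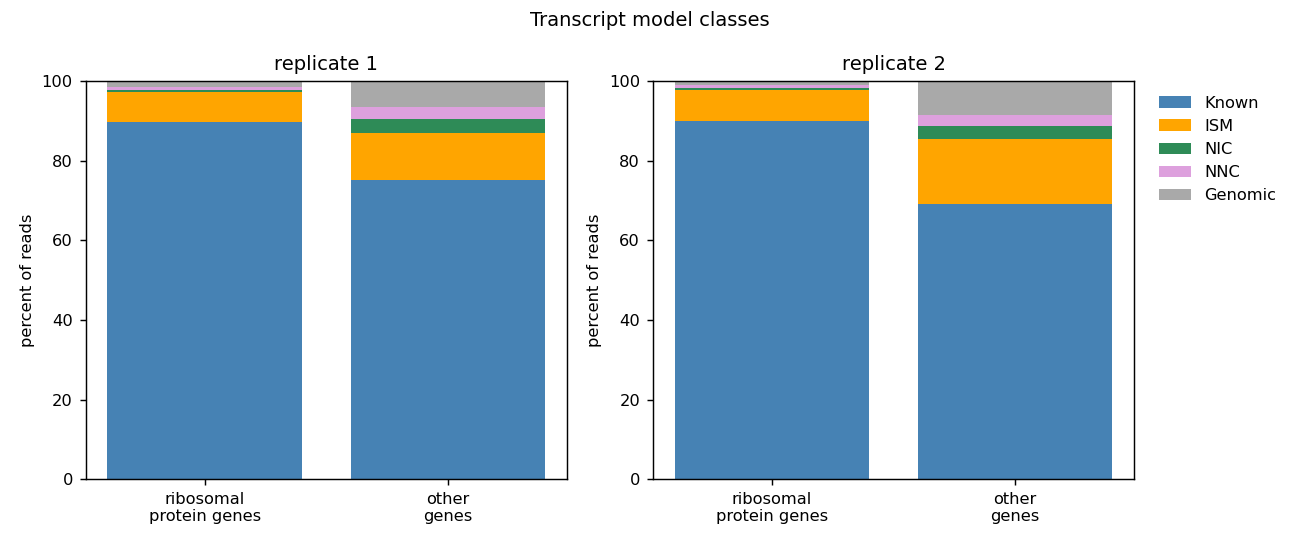
Percent of reads in each transcript model class for ribosomal protein genes and for all other annotated genes, with 1 panel for each replicate. The Known share of ribosomal protein genes is 89.7% and 89.9%, above that of other genes in both panels, and ISM, NIC, NNC and Genomic models are rarer than in other genes.

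Of the ISM models, several short ones were read in both libraries. Rpl39, on chromosome X, had 558 and 180 reads on a 1-exon model of 230 bases, 58.2% and 51.4% of the gene. Rps3a1 had 205 and 55 reads on a 1-exon model of 171 bases, and Rps21 had 167 and 29 reads on a 2-exon model of 121 bases.

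Rps27a, which is made as a fusion with ubiquitin, stood at 698 and 581 CPM. In replicate 1, 223 of its 799 reads, and in replicate 2, 37 of its 241, were Genomic. A Genomic model of 54 bases at the 3′ end of the gene held all of these in both libraries, 27.9% of the gene in replicate 1 and 15.4% in replicate 2. Most other reads matched Rps27a-202, with 502 and 174 of the full-length reads, and Rps27a-201 with 58 and 23. Fau, a small-subunit protein made as a fusion with a ubiquitin-like protein, has a symbol outside the rule and stood at 390 and 432 CPM.

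Of the 83 members, 44 had a second full-length isoform with at least 5% of the full-length reads in either library. Several abundant ones had a dominant form. Rpl41-201 held 1594 and 850 reads and Rpl41-206 held 112 and 59, or 6.42% and 6.28% of full-length reads. Rps14-201 held 787 and 383 reads against 58 and 39 for Rps14-203, and Rps9-201 held 603 and 198 reads against 42 and 18 for Rps9-204. In Rpl11 the second form Rpl11-204, with 93 and 39 reads, is a 2-exon transcript annotated as non-coding. The second forms Rpl7-203, with 51 and 9 reads, and Rpl23-203, with 24 and 13, are of the same kind. In Rpl22 the leading form itself, Rpl22-205 with 156 and 60 reads, is annotated as non-coding. In Rpl36al the second form Rpl36al-202, with 48 and 25 reads, is a single exon of 1276 bases.

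In others the second form was a larger minority, among them Rpl38 and Rps28. Rpl38, required in mouse for the translation of a subset of Hox mRNAs, had 445 and 219 reads of Rpl38-204 and 239 and 151 reads of Rpl38-201, so that the second form made up 32.7% and 37.9%. Rps28 had 568 and 249 reads of Rps28-205 and 241 and 94 of Rps28-201, where the second form made up 29.4% and 27.3%. The leading share of neither gene passed Fisher's exact test between the libraries.

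Rps24, on the plus strand of chromosome 14, is known for alternative short exons near its 3′ end that change the last codons of the protein. Of its 154 and 56 full-length reads, Rps24-210, which joins exon 4 to the last exon, held 75 and 26. An unannotated model held 59 and 22, or 38.3% (31.0 to 46.2) and 39.3% (27.6 to 52.4). It carries an exon of 36 bases (mm10 chromosome 14, 24494052 to 24494087) between exon 4 and the last exon, with the same chain of introns in both libraries. The annotated transcript closest to it, Rps24-205, has an 18-base exon that begins at the same position and ends at 24494069. Rps24-205, Rps24-202 and Rps24-201 had 0 full-length reads, which allows up to 1.95% and 5.36% of the full-length reads of the gene. The 18-base exon was read in an unannotated chain that joins it to the last exon, with 3 and 2 reads, or 1.95% and 3.57%. The shares of Rps24-210 and of the model with the 36-base exon repeated between the libraries within counting error.

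The sequences below are shown because they set the ends of the protein and mark the unannotated splice site. They are from GENCODE M21 transcripts on mm10, plus strand, 5′ to 3′. In the first pair the lower case letters are the end of exon 4 and the capitals are what follows it through the stop codon.
Rps24-210, exon 4 joined to the last exon: gttggtgctggcaaaaagCCAAAGGAGTAG
Rps24-205 and the model with the 36-base exon, exon 4 joined to the exon at 24494052: gttggtgctggcaaaaagAAATGA
The reading frame thus ends 12 bases into the next exon in the first form and 6 bases into it in the second, so that the added length of the 36-base exon lies behind the stop codon. In the next pair the capitals are the last 3 exon bases and the lower case letters the first 6 intron bases.
Donor of the annotated 18-base exon: CAGgtactg
Donor of the unannotated 36-base exon: ACGgtgtgg
Both donors have gt at the start of the intron.

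Unannotated forms of the other members were mostly rare. Members had 270 spliced chains without annotation in replicate 1 and 135 in replicate 2, of which 56 occurred in both, in 43 genes. Single reads made up 204 and 105 of these chains. Shared chains held 49.9% and 62.8% of the unannotated reads, and those of Rps24 and Rpl7l1 were the most read. The Rpl7l1 model uses a splice site 5 bases from the annotated one behind the coding sequence, and it held 48 and 15 reads, or 38.4% and 37.5% of full-length reads, against 71 and 23 for Rpl7l1-201. Like that of Rps24, this share repeated closely between libraries.

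Models with splice acceptors 3 bases apart were read in Rpl22l1 and Rplp2. In Rpl22l1 both forms are annotated. Rpl22l1-206, without the 3 bases, held 129 and 65 reads, and Rpl22l1-201, with them, held 71 and 24. The retained-intron form Rpl22l1-208 held 32 reads in replicate 1 and 1 in replicate 2. In Rplp2 the form without the 3 bases is not annotated and held 23 and 7 reads, against 579 and 217 for Rplp2-201. Whether the reads of this unannotated form come from use of another acceptor was not tested. The coding sequence around the joint is given with the 3 variable bases in capitals (mm10, plus strand, chromosome 3 for Rpl22l1 and chromosome 7 for Rplp2).
Rpl22l1-201: atggcgccgCAGaaagacaagaag
Rpl22l1-206: atggcgccgaaagacaagaag
Rplp2-201: cccccgctgcagCAGaggagaagaaag
Rplp2, unannotated: cccccgctgcagaggagaagaaag
In each pair the longer form keeps the reading frame of the shorter one and adds 1 codon.

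**Figure D4:**
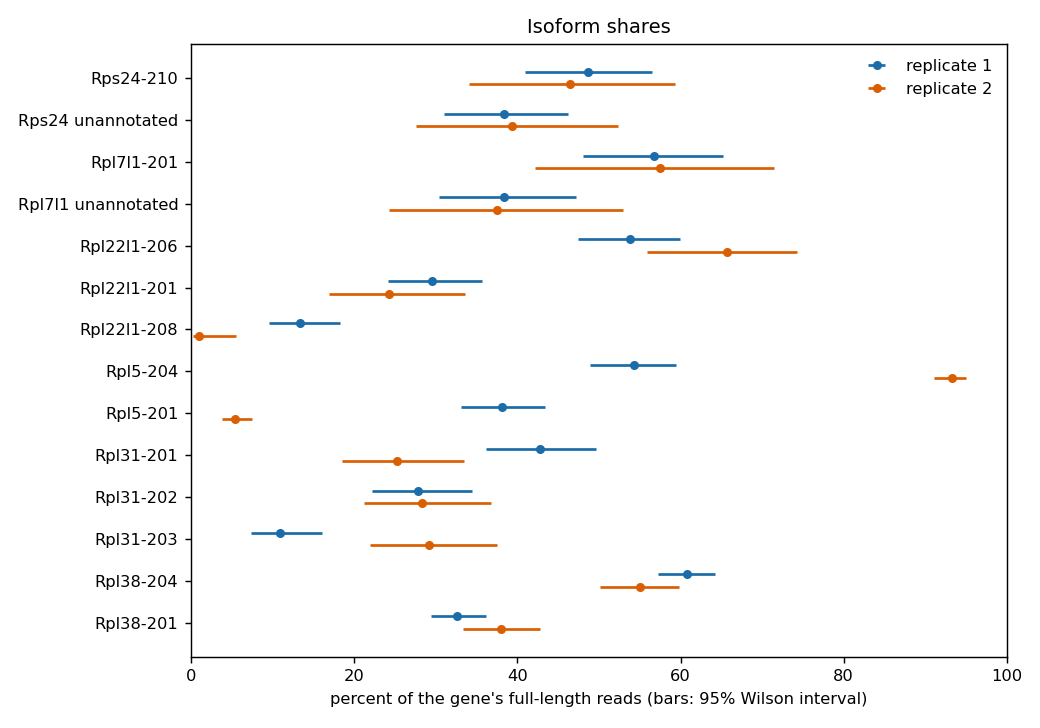
Share of selected isoforms in percent of the full-length reads of their gene, with 1 point for each replicate and bars for the 95% Wilson interval. The intervals of both replicates overlap for Rps24 and Rpl7l1, including their unannotated forms, and lie far apart for Rpl5-204 and Rpl5-201.

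To ask whether the forms used differed between libraries, reads of each gene's leading form and of all its other forms were set against each other in a Fisher's exact test, two-sided, for every gene with 20 or more full-length reads on both sides. After Benjamini-Hochberg adjustment 1.03% of 3005 genes passed the threshold of 0.05, and 2 of 76 members did. The first was Rpl5 (mm10 chromosome 5, 107900502 to 107909005, plus strand), in which Rpl5-204, a 3-exon form annotated as a retained intron, held 185 of 341 full-length reads in replicate 1 and 574 of 615 in replicate 2 (54.3% and 93.3%, adjusted p = 6.12e-42, Fisher's exact test). The coding form Rpl5-201 held 130 and 33. The added Rpl5 reads of replicate 2 were thus assigned to Rpl5-204, while fewer reads were assigned to the coding form in this shallower library. Whether the reads of Rpl5-204 come from RNA that retains an intron was not tested. The intronless copy Gm15500, at 100% identity to the coding sequence of Rpl5, also had more reads in replicate 2, with 230 and 491. With its copies added, Rpl5 came to 511 and 2689 CPM. Since the placing of reads between gene and copy is not stated, the level of the Rpl5 coding sequence is uncertain in both libraries. The second was Rpl26, in which Rpl26-201 held 95.4% and 86.6% of full-length reads (adjusted p = 0.00257, Fisher's exact test) and the retained-intron form Rpl26-204 held 16 and 30 reads.

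Forms of Known class annotated as retained introns held 1.76% and 5.46% of the Known reads of members, and protein-coding forms held 96.8% and 93.1%. All forms annotated as other than protein-coding, retained introns included, held 3.23% and 6.92%, and without Rpl5 they held 2.69% and 3.26%. Rpl31 had 4 forms of comparable size, with 86 and 32 reads of Rpl31-201, 56 and 36 of Rpl31-202, 22 and 37 of Rpl31-203 and 35 and 19 of Rpl31-204, and its leading share of 42.8% and 25.2% did not pass (adjusted p = 0.11, Fisher's exact test).

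Gene totals of replicate 2 were then set against those of replicate 1. The test was an exact binomial one, two-sided, with library sizes scaled by the trimmed mean of M values. Ratios are log2 of replicate 2 over replicate 1 on scaled CPM plus 1. Of 9885 genes with at least 10 reads, 7.86% were called higher and 6.13% lower in replicate 2. Of the 81 members tested, 21 were called higher and 7 lower, 34.6% against 14.0% for all genes in either direction. Members were then set beside genes above higher read minimums. Among genes with at least 200 reads, 40.4% of 1633 were called and 26 of 72 members (36.1%) were, and among genes with at least 50 reads, 22.7% of 4965 were called and 28 of 79 members (35.4%) were. Depths above these minimums were not matched. The median ratio was 0.17 over members and -0.01 over all genes tested, and 59 of 81 members had a ratio above 0. The quartiles of the ratio lay 0.39 apart for members with at least 200 reads and 0.73 apart for all genes with as many. By subunit, 13 of 45 large-subunit members were called higher and 3 lower, 8 of 33 small-subunit members higher and 3 lower, and 1 of 3 stalk members lower.

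The differences within the family were small for most genes, and 77 of 81 lay within 2-fold. Among called members the largest was Rpl5, with 353 and 624 reads and a log2 ratio of 2.35 (adjusted p = 8.86e-136, exact binomial test). Rpl35 had 846 and 570 reads and a log2 ratio of 0.97 (adjusted p = 8.79e-31, exact binomial test), which was 1.04 over full-length reads. The next called higher were Rpl31 at 0.84, Rps27 at 0.82, Rpl24 at 0.77, Rpl36a at 0.77, Rps19 at 0.70 and Rps25 at 0.69. Rpl21 at 1.04, Rpl10 at 0.85 and Rpl17 at 0.81 lay among these values but were not called.

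The 7 members called lower in replicate 2 were led by Rpl7a, with 116 and 19 reads and a log2 ratio of -1.06, and Rps12, with 151 and 25 reads and a log2 ratio of -1.05. Over full-length reads alone Rpl7a stood at -0.73 and no longer passed (adjusted p = 0.179). Rps2, in the small subunit, had 399 and 86 reads and a log2 ratio of -0.68. Rpsa, a small-subunit protein first described as a laminin receptor precursor, had 436 and 96 reads and a log2 ratio of -0.64. Rpl7 stood at -0.47, Rpl4 at -0.40 and Rplp0 at -0.33. All 7 were lower in replicate 2 in CPM as well, and Rpl7 lost its call without Genomic reads (adjusted p = 0.0597) and with replicate 1 thinned to the depth of replicate 2 (adjusted p = 0.21).

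**Figure D5:**
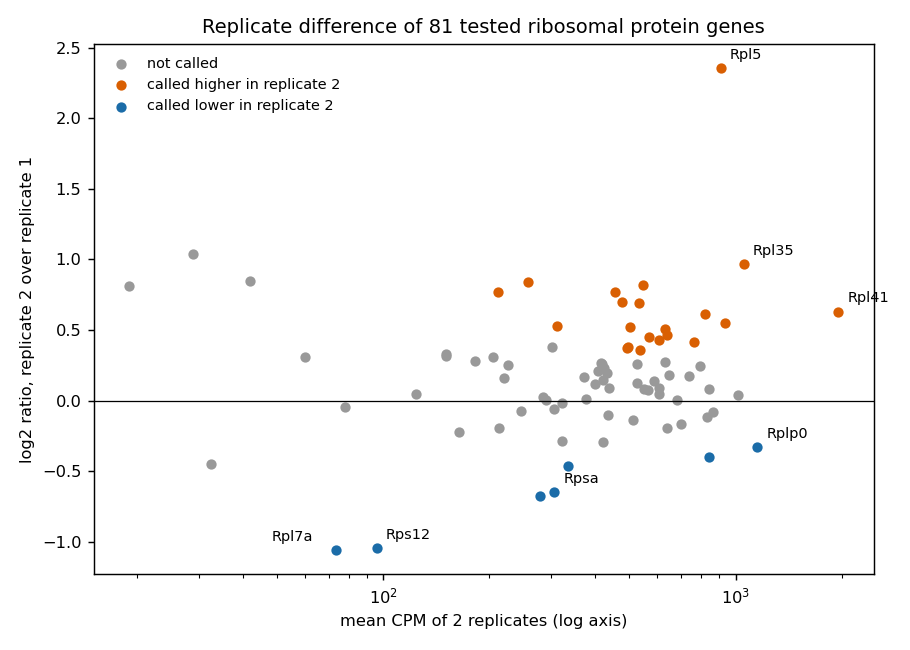
Log2 ratio of replicate 2 over replicate 1 against mean CPM on a log axis for the 81 ribosomal protein genes tested, with 1 point for each gene, coloured by its call in the exact binomial test. Of the points, 21 are called higher and 7 lower, and Rpl5 at 2.35 stands apart from the rest.

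Genes that work with the ribosomal proteins were read alongside. For comparison with their calls, 14.0% of all genes tested were called in either direction, and 40.4% of those with at least 200 reads. Of 15 elongation and other translation genes with the same kind of pyrimidine tract that were read, 1 was called higher and 4 lower in replicate 2, with a median log2 ratio of -0.29. The highest of these were the elongation factors Eef1a1 with 1235 and 796 CPM (log2 ratio -0.56) and Eef2 with 1147 and 437 CPM (log2 ratio -1.32), then Tpt1 with 759 and 531 CPM (-0.44) and Eef1g with 422 and 302 CPM (-0.41). All 4 were called lower. Eif3f was called higher, with a log2 ratio of 0.62. The rest of the list was not called, and of these only Eef1d (0.21) and Eif3h (0.20) were above 0. The ribosomal proteins had a median above 0. Whether these groups differ was not tested.

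Of 23 ribosome assembly factors, 1 was called higher and 2 lower, beside 14.0% of all genes tested in either direction. Their median log2 ratio was -0.16. The highest were Nop10, a part of the pseudouridylation particles, with 370 and 707 CPM and the only higher call, Eif6 with 230 and 227 CPM, the nucleolar protein Ncl with 246 and 186 CPM and Nhp2 with 152 and 171 CPM. Of 12 regulators of ribosomal protein synthesis, 3 were called higher and 1 lower, with a median log2 ratio of 0.61. Several of these regulators had few reads, such as Mtor with 15 and 5, Tsc1 with 10 and 34, and Larp4 with 10 and 9, so this median is uncertain. The highest were the kinase Akt1 with 898 and 666 CPM, Eif4ebp1, an mTOR target that holds back translation, with 288 and 345 CPM, Myc with 76.0 and 128 CPM and the kinase gene Rps6kb1 with 59.4 and 53.1 CPM.

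Many introns of these genes hold small nucleolar RNAs, which guide the modification of ribosomal RNA. Of the 83 members, 29 had 57 annotated small nucleolar RNA genes inside them on the same strand. Their median level was 411 CPM in replicate 1 and 549.9 CPM in replicate 2, beside 397 and 441 CPM for the 54 members without.

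Promoter windows of 300 bases, from 250 before to 50 after the start, were matched in RefSeq (GRCm38.p6) for 62 of the 83 members, with 74 windows. The letters CTTTCC, part of the pyrimidine-rich start of these genes, were on the gene's own strand in 37.8% of member windows and 14.1% of all 32851 windows, and on either strand in 48.6% and 26.6%. CTCTTTCC, which contains CTTTCC, was on the gene's own strand in 13.5% and 1.50%. CCGGAAG, a core that ETS-family factors such as Gabpa can bind, was on either strand in 35.1% and 8.86%. A match is a description of letters and not a bound site. Of the members with CTTTCC near the start, 4 are shown as examples, with that motif in capitals, on the gene's strand.
Rpl35 (chr2:39005119-39005148, minus strand): gtcggccccgccCTTTCCtctttctctcga
Rpl13a (chr7:45128719-45128748, minus strand): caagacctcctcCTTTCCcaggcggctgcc
Rpl4 (chr9:64173358-64173387, plus strand): caagtgacaagtCTTTCCttttcctgtggg
Rpl38 (chr11:114668568-114668597, plus strand): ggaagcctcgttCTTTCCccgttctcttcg
The motif began 5 bases before the start in Rpl35 and 17 bases before it in Rpl4, at base 1 of the transcript in Rpl38 and at base 10 in Rpl13a.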

How the data were processed

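Long-read RNA sequencing libraries of mouse adrenal gland, 2 in 1 group, came as tables of transcript models. The values are counts, deposited by the authors without normalization, of the reads on each model. Per the labels' protocols the ENCODE long-read pipeline was used with mm10, and per the file headers models were named by TALON against GENCODE M21. Its aligner: not given in the sources used here. Total reads were 1223776 and 453761.

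Gene counts were summed over models. CPM were per 1000000 reads of annotated genes without spike-ins. Known, NIC and NNC models were taken as full-length. Factors of 1.03 and 0.976 came from trimmed mean of M values in edgeR 4.0.16, without any edgeR test, as there are no replicates between groups. The exact binomial test used genes with at least 10 reads, a pseudocount of 1 CPM for ratios and a threshold of 0.05 after Benjamini-Hochberg adjustment, and was checked on simulated data. Isoforms were tested with Fisher's exact test. Shares have 95% Wilson intervals, and 3 reads were the floor. Intervals and floors cover counting error only. Tests used SciPy 1.17.1. Copies were matched with BLAST 2.17.0 at an E-value of 1e-10 or less.

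In all, 2 genes, 1 of them a member by the rule, are not reported here and enter no count, sum or list of members. The members and lists were chosen with earlier results of these data known. Named were the 10 highest and 10 lowest members, members without a read, up to 8 calls in each direction, all paralogues, up to 10 members with a second isoform of at least 5%, the stalk genes, Rps24, Rps27a and Rpsa, the 4 highest genes of the other lists and the 4 largest copies. Other copies and forms, and members among the unannotated models, were chosen after their values were seen. The symbol Gnb2l1 of the list is not in the annotation, where Rack1 stands for it. Alternatives were total reads or DESeq2 1.42.0 size factors, no read minimum, another pseudocount, full-length reads only, no Genomic models, thinning, and leaving out a replicate.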

Additional observations from a re-analysis of the deposited data

How the results depend on the processing

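The counts of members and of all genes called higher or lower stayed within 1.5 times of the reported ones under every scaling, read minimum, class and depth setting tried. Members called higher were 18 to 27 and members called lower 6 to 8. Of the 28 members called, 25 kept call and direction with total reads, 28 with DESeq2 size factors, 26 with full-length reads, 27 without Genomic models and 25 with replicate 1 thinned. The median log2 ratio of members was 0.10 with total reads and 0.26 without Genomic models. The summed level was 4.48% with full-length reads, 4.33% with pseudogenes named after members and 4.93% with the copies matched by sequence, an alternative chosen after seeing the data. With the copies the coefficient of variation was 58.6%. The ratio of large to small medians was 0.960 with full-length reads and 1.05 with the copies, both sides of 1. The leading isoform of Rps24 held 93.9% of Known reads, since its unannotated form is left out there. The cause of the other moves was not tested.

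With 2 libraries, leaving out a replicate only returns the value of the other, so it is no further check. The values of the single libraries were 3.63% and 4.09% for the summed level and 61.3% and 70.3% for the coefficient of variation. They were 0.990 and 0.992 for the ratio of medians, and 48.7% and 46.4% for the leading share of Rps24. Among named members, Rpl21 (log2 ratio 1.53) passed with full-length reads, and Rplp1 (0.30) and Rps27l (0.45) passed without Genomic models. No paired analysis was possible because both libraries are in 1 group. Replicate 2 had 2.76 times fewer reads, and this depth limits what can be said of members under about 50 reads.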
